A study of Mus musculus with 18 samples.

Results

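The p53 target genes described here are Cdkn1a, Mdm2, Phlda3, Ccng1, Bax, Bbc3, Gdf15, Sesn2, Trp53inp1 and Btg2, a group of 10 that the tumour suppressor p53 switches on, followed in the lungs of mice given 4 chemicals for 13 weeks. They were chosen by name as a sign of DNA damage, with earlier results of these data known. Each is represented by the array probe set annotated to that single symbol, and, where there were several, by the one with the highest mean over all arrays. Of the 10 genes listed, 8 had such a probe set, and all 8 were bright enough to be tested, among 13434 genes tested of 18193 measured. Bax and Gdf15 were not analysed here.

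When DNA is broken or replication stalls, the kinases Atm, Atr and Chek2 stabilise p53, which binds paired decamers in the promoters and introns of its targets and switches them on. The targets fall into classes: those that stop the cell cycle, those that damp p53 again or tune its activity, those that lead to cell death, and those that buffer metabolic and oxidative stress. In lung, as in other tissues, the set is known to respond to ionising radiation and to many genotoxic chemicals, and several of its members also respond to other stresses that do not involve p53.

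Total RNA of the right lung lobe was measured on whole-genome Affymetrix mouse arrays, with 1 female B6C3F1 mouse per array, 18 arrays and 3 arrays in each of 6 groups. The mice were 5 weeks old when dosing began and 18 weeks old when sampled. Treated feed contained 1,5-naphthalenediamine (NDA) at 2000 ppm, N-(1-naphthyl)ethylenediamine dihydrochloride (NEDD) at 2000 ppm or pentachloronitrobenzene (PCNB) at 8187 ppm, and was given on 7 days a week beside a feed control. Benzofuran was given at 240 mg/kg by gavage in corn oil on 5 days a week, beside a control given 5 ml/kg of corn oil alone. NDA and benzofuran are known as lung carcinogens of mice in long-term bioassays, whereas NEDD and PCNB did not raise lung tumours there. The NDA and NEDD molecules share the naphthalene ring system, with a free amino group on each ring in NDA and an ethylenediamine chain on 1 ring in NEDD. A single dose and a single time were sampled for each chemical, the whole lobe was used without separating its cells, and the doses of the 4 chemicals are not matched except for NDA and NEDD.

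Values are signals on a log2 scale, so that a difference of 1 is a doubling, and a gene is said to have risen or fallen only where its p-value from limma, adjusted by Benjamini-Hochberg over all genes tested, was below 0.05. Array medians lay between 5.68 and 5.80. The lung markers Sftpc, Scgb1a1 and Ager were far up the range, with means of 14.6, 14.4 and 14.0, while the liver genes Alb and Fgb averaged 4.93 and 3.94. Heart muscle genes were present in all groups, with Myh6 at 9.32 to 11.4 on single arrays. The array of benzofuran mouse 10 stood apart from the others: its first principal component was 46.6, against -11.8 to 7.81 on the other arrays, and its actin probe sets differed by 0.91 between the 3' and 5' ends, against 0.33 to 0.73 elsewhere.

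The promoters of the targets that carry the exact p53 decamer, together with that of Phlda3, the target that rose with NDA, are shown because the decamer is the sequence that p53 reads. The windows are the RefSeq promoters of build GRCm38.p6, and the 250 bases before the transcription start are printed 5' to 3' on the gene's strand, with each p53 half-site in capitals. They lie at chr17:29090729-29090978 on the plus strand for Cdkn1a, chr10:117710759-117711008 on the minus strand for Mdm2, chr11:40755287-40755536 on the minus strand for Ccng1 and chr1:135765835-135766084 on the plus strand for Phlda3, each ending at the base before a transcription start of the gene. Cdkn1a has a further window at a start downstream of this one, which is not printed.
Cdkn1a: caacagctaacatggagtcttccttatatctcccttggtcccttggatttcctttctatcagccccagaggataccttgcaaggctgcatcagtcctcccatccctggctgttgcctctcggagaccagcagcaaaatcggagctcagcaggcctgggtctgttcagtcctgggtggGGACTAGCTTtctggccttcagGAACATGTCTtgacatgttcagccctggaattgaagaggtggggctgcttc
Mdm2: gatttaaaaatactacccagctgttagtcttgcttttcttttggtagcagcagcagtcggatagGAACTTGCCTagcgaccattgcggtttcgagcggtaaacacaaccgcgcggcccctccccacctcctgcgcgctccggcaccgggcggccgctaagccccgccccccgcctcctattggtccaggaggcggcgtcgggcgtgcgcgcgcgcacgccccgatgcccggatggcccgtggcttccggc
Ccng1: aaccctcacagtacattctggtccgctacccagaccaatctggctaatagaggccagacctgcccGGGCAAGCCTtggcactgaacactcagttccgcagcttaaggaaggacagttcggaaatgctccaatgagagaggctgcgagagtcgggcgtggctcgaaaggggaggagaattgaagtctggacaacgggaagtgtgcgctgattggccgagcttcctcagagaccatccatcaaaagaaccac
Phlda3: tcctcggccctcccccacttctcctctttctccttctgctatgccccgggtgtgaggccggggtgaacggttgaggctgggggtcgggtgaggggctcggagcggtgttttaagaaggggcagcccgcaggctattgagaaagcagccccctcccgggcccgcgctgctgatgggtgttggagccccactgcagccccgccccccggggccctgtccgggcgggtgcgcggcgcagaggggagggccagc

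In its printed, upstream window Cdkn1a held GGACTAGCTT at 73 bases and GAACATGTCT at 51 bases before that start, with 12 bases between them. Mdm2 held GAACTTGCCT at 186 bases and Ccng1 held GGGCAAGCCT at 185 bases before the start. The pattern searched was the p53 half-site of 10 letters, which reads the same on both strands, in windows of 300 bases. Only exact matches are in capitals. In Cdkn1a tgacatgttc, which follows GAACATGTCT directly, departs from the pattern by its leading t and is therefore not marked. Of the 8 members measured, 7 had at least 1 window, Trp53inp1 being the exception, and 3 of their 10 windows held a half-site, against 8.36% of all 32851 promoter windows. A pair of half-sites at most 13 bases apart, as in Cdkn1a, was found in 0.0731% of all windows. No exact half-site was found in the windows of Phlda3, Btg2, Sesn2 and Bbc3 or in the second window of Cdkn1a, which says only that these letters are not in those windows.

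With NDA all 8 p53 targets measured had a higher mean than in the feed controls, and 1 of them passed the test. Phlda3 rose by 0.42 ± 0.10 (log2, SE, 3 arrays per group), which is 1.34-fold. Cdkn1a had the largest difference of the 8, 0.79 ± 0.20 or 1.73-fold, and an adjusted p of 0.0608 that missed the threshold. The 1 member called of 8 stands beside 1.37% of all genes called in this comparison, and 1.12% called higher. All 8 differences were positive, where 44.1% of all genes had a positive difference, and their median was 0.29 against -0.02 for all genes tested. With the mean of all probe sets per gene, or with the 3' minus 5' actin difference as a covariate, 7 of the 8 were positive. Over the alternative settings the median ran from 0.19, without feed control mouse 27, to 0.36, with a stricter filter that left 7 members. In 6 of the 8 genes every NDA array lay above every feed control array, which happened for 9.48% of all genes, and 5 of the 8 had an unadjusted p below 0.05, as had 10.3% of all genes. None of the 8 passed the test with benzofuran, NEDD or PCNB. In whole lobes, a change in the number of cells of a type and a change in RNA per cell cannot be told apart.

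**Figure D1:**
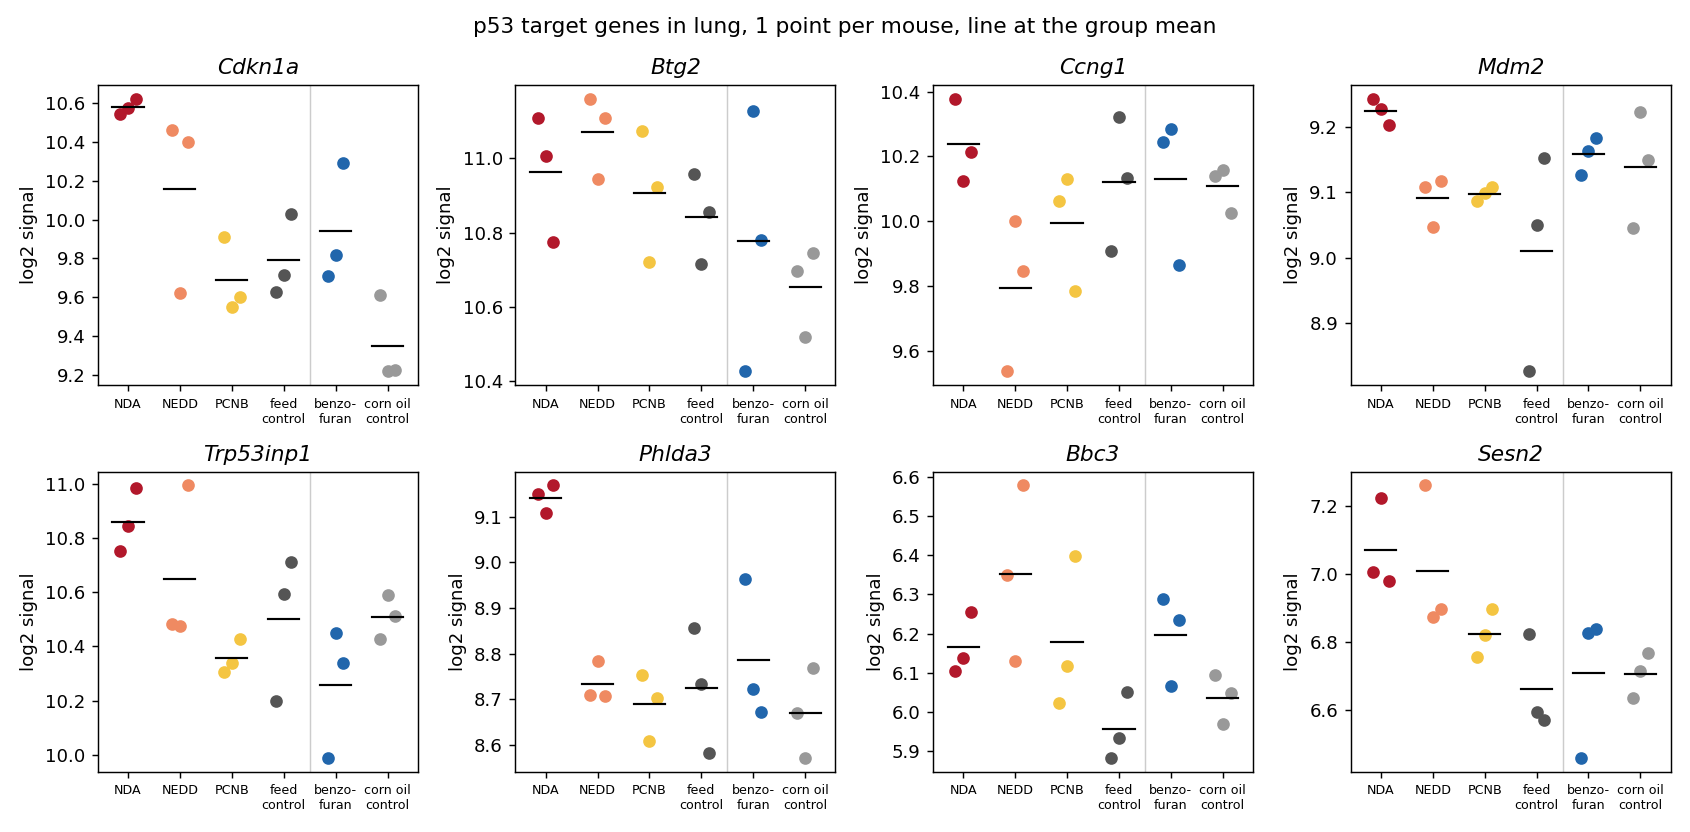
Signal (log2) of the 8 p53 target genes on each array, with 1 point per mouse, the group mean as a line, and the gavage groups right of the grey line. The 3 NDA points of Cdkn1a (10.55 to 10.63) and of Phlda3 (9.11 to 9.17) sit above all 15 other arrays, whereas Ccng1 and Btg2, on the probe sets shown, overlap between NDA and the feed control.

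Among the genes that stop the cell cycle, Cdkn1a encodes p21, the inhibitor of cyclin-dependent kinases that carries out the p53-dependent arrest. Its signal was 10.55, 10.58 and 10.63 in NDA lungs, against 9.63, 9.71 and 10.03 in feed control lungs. Benzofuran lungs had 9.71, 9.82 and 10.29, against 9.61, 9.22 and 9.22 in corn oil control lungs. Both sets of treated arrays lay above their own controls without overlap. In NEDD lungs it was 10.46, 9.62 and 10.40 and in PCNB lungs 9.55, 9.91 and 9.60, against the same feed controls. NEDD thus held 2 high arrays and 1 at the level of the controls, and PCNB overlapped with them.

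The difference of Cdkn1a from its own control was 0.79 ± 0.20 with NDA (95% interval 0.37 to 1.21, adjusted p = 0.0608) and 0.59 ± 0.20 with benzofuran (0.17 to 1.01, adjusted p = 0.122). It was 0.37 ± 0.20 with NEDD (-0.05 to 0.79, adjusted p = 0.555) and -0.10 ± 0.20 with PCNB (-0.52 to 0.31, adjusted p = 1.00). Cdkn1a was also the most variable member, with a residual SD of 0.27, larger than that of 91.4% of the genes tested, where Phlda3 had 0.10 and Mdm2 0.08. On the probe set used, the corn oil control arrays all lay below the 3 feed control arrays. That difference of -0.44 ± 0.20 did not pass the test (unadjusted p = 0.0399, adjusted p = 1.00). These groups differ in gavage against feed and in 5 against 7 days a week. The part of the corn oil controls' low level in the benzofuran value was not tested.

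Cdkn1a has a second probe set that is dimmer than the one used. It read 8.16, 8.51 and 8.52 in NDA lungs, against 7.38, 7.33 and 7.48 in feed control lungs, a difference of 1.00 ± 0.20. A further limma fit took all bright probe sets of a single symbol and every probe set of the members. In it this second probe set passed the test for NDA (adjusted p = 0.0177), while the brighter one did not (adjusted p = 0.0921). Phlda3 did not pass for NDA in that fit either (adjusted p = 0.0632). With benzofuran the second probe set of Cdkn1a read 7.26, 7.86 and 8.12, against 7.44, 6.91 and 7.21 in corn oil control lungs, and the groups overlapped through benzofuran mouse 10. With NEDD it read 8.29, 7.67 and 7.78, all above the feed controls (0.52 ± 0.20, adjusted p = 0.590). On this second probe set the corn oil and feed control arrays overlapped, with a difference of -0.21 ± 0.20.

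**Figure D2:**
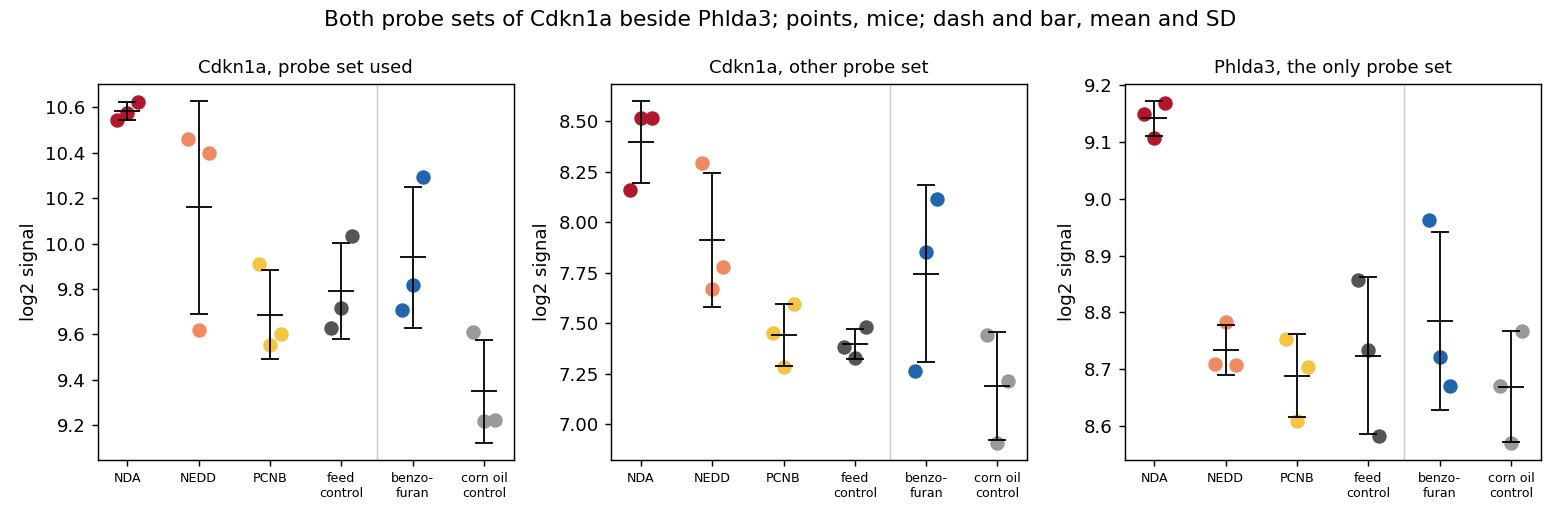
Signal (log2) of the 2 probe sets of Cdkn1a and of the probe set of Phlda3 by group, with points for mice and the mean and SD as dash and bar. NDA is highest in all 3 panels, and the order of the next groups in Cdkn1a, with NEDD and then benzofuran next by mean, is the same for both of its probe sets, while the means of Phlda3 in the 5 other groups lie between 8.67 and 8.79.

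Btg2, an antiproliferative cofactor that p53 induces, read 11.11, 11.01 and 10.78 in NDA lungs and 11.16, 10.94 and 11.11 in NEDD lungs, against 10.96, 10.72 and 10.86 in feed control lungs. The groups overlapped in both cases, with differences of 0.12 ± 0.15 for NDA and 0.23 ± 0.15 for NEDD. Benzofuran lungs spread from 10.43 to 11.13, against 10.52 to 10.75 in corn oil control lungs (0.12 ± 0.15), with mouse 10 as the low one. Its other probe set went the opposite way with NDA, by -0.21 ± 0.16, so that no direction can be given for Btg2 with NDA.

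Ccng1, cyclin G1, which feeds back on p53 through Mdm2 and a phosphatase, is among the most regular p53 responders after radiation in mice. It read 10.38, 10.12 and 10.21 in NDA lungs, against 9.91, 10.32 and 10.13 in feed control lungs, and the groups overlapped (0.12 ± 0.14). In NEDD lungs it was 9.54, 10.00 and 9.85, the lowest mean of the 6 groups, with a difference of -0.33 ± 0.14 (unadjusted p = 0.0369, adjusted p = 0.508). Its other 2 probe sets differed by 0.49 ± 0.19 and 0.23 ± 0.12 with NDA, neither passing the test. In the former the groups did not overlap, with 9.35 to 9.71 in NDA lungs, against 8.85 to 9.33 in feed control lungs. On the probe set used, benzofuran and PCNB gave 0.02 ± 0.14 and -0.13 ± 0.14.

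Mdm2, the ubiquitin ligase that degrades p53 and is itself its target, had 3 probe sets. The one used read 9.24, 9.23 and 9.20 in NDA lungs, against 8.83, 9.05 and 9.15 in feed control lungs. The NDA arrays lay above the controls by 0.22 ± 0.09 (adjusted p = 0.386), with feed control mouse 27 the lowest of all 18 arrays. The other groups ranged from 9.05 to 9.22 in single lungs, and their differences from control were 0.02 ± 0.09 for benzofuran, 0.08 ± 0.09 for NEDD and 0.09 ± 0.09 for PCNB. A second probe set spread more widely, from 7.91 to 8.70 over the 18 arrays, with differences of 0.24 ± 0.13 for NDA, 0.13 ± 0.13 for benzofuran and -0.18 ± 0.13 for NEDD. None of these passed the test, nor did its difference between NDA and NEDD (0.42 ± 0.13, adjusted p = 0.160).

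Trp53inp1 encodes a nuclear protein that enhances p53 phosphorylation and cell death. It was 10.75, 10.84 and 10.98 in NDA lungs, against 10.20, 10.59 and 10.71 in feed control lungs, without overlap (0.36 ± 0.15, adjusted p = 0.402). With benzofuran it was 9.99, 10.45 and 10.34, against 10.43, 10.59 and 10.51 in corn oil control lungs, a difference of -0.25 ± 0.15 (adjusted p = 0.389). NEDD lungs had 1 array, 11.00, above all others, and 2 at 10.48 and 10.47. PCNB gave -0.15 ± 0.15. Its other probe set differed by 0.69 ± 0.33 with NDA (adjusted p = 0.531), 0.27 ± 0.33 with NEDD and -0.23 ± 0.33 with benzofuran.

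Of the genes that lead to cell death, Phlda3 encodes a small protein that competes with the kinase Akt for membrane lipids and so lowers survival signalling. It was the member that passed the test. Its signal was 9.15, 9.11 and 9.17 in NDA lungs, against 8.86, 8.73 and 8.58 in feed control lungs. The lowest NDA array exceeded the highest of the other 15 arrays, 8.96 in benzofuran mouse 10. The difference was 0.42 ± 0.10 (95% interval 0.21 to 0.63, adjusted p = 0.0414).

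In the other treatments Phlda3 stayed within the range of the controls, apart from benzofuran mouse 10. Benzofuran lungs read 8.96, 8.72 and 8.67, against 8.67, 8.57 and 8.77 in corn oil control lungs (0.12 ± 0.10). NEDD gave 0.01 ± 0.10, with a 95% interval of -0.20 to 0.22, and PCNB -0.04 ± 0.10, with an interval of -0.24 to 0.17. The call for NDA depended on the setting: it held in 9 of 17 alternatives, with adjusted p from 0.000821 to 0.259, and was lost without NDA mouse 2, 4 or 5 or feed control mouse 28 or 29. The difference itself lay between 0.35 and 0.48 throughout. In the fit on probe sets, which is not among those 17, Phlda3 was not called for NDA (adjusted p = 0.0632).

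Bbc3 encodes Puma, a BH3-only protein that triggers apoptosis, and was the dimmest of the probe sets used, near the middle of all probe sets. It read 6.10, 6.14 and 6.26 in NDA lungs and 6.35, 6.13 and 6.58 in NEDD lungs, against 5.88, 5.93 and 6.05 in feed control lungs. Both treatments were clear of the controls, by 0.21 ± 0.12 (adjusted p = 0.600) with NDA and 0.40 ± 0.12 (adjusted p = 0.413) with NEDD. Benzofuran gave 0.16 ± 0.12 and PCNB 0.22 ± 0.12, both with overlapping arrays.

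Sesn2 encodes sestrin 2, which restrains the growth kinase mTORC1 and limits oxidative damage, and is a target of the stress factor Atf4 as well as of p53. It was 7.01, 7.22 and 6.98 in NDA lungs and 7.26, 6.87 and 6.90 in NEDD lungs, against 6.82, 6.60 and 6.57 in feed control lungs. Neither overlapped with the controls, at 0.41 ± 0.13 (adjusted p = 0.165) for NDA and 0.35 ± 0.13 (adjusted p = 0.485) for NEDD. The dimmer probe set gave 0.52 ± 0.15 and 0.44 ± 0.15. With benzofuran the difference was 0.00 ± 0.13 and with PCNB 0.16 ± 0.13.

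**Figure D3:**
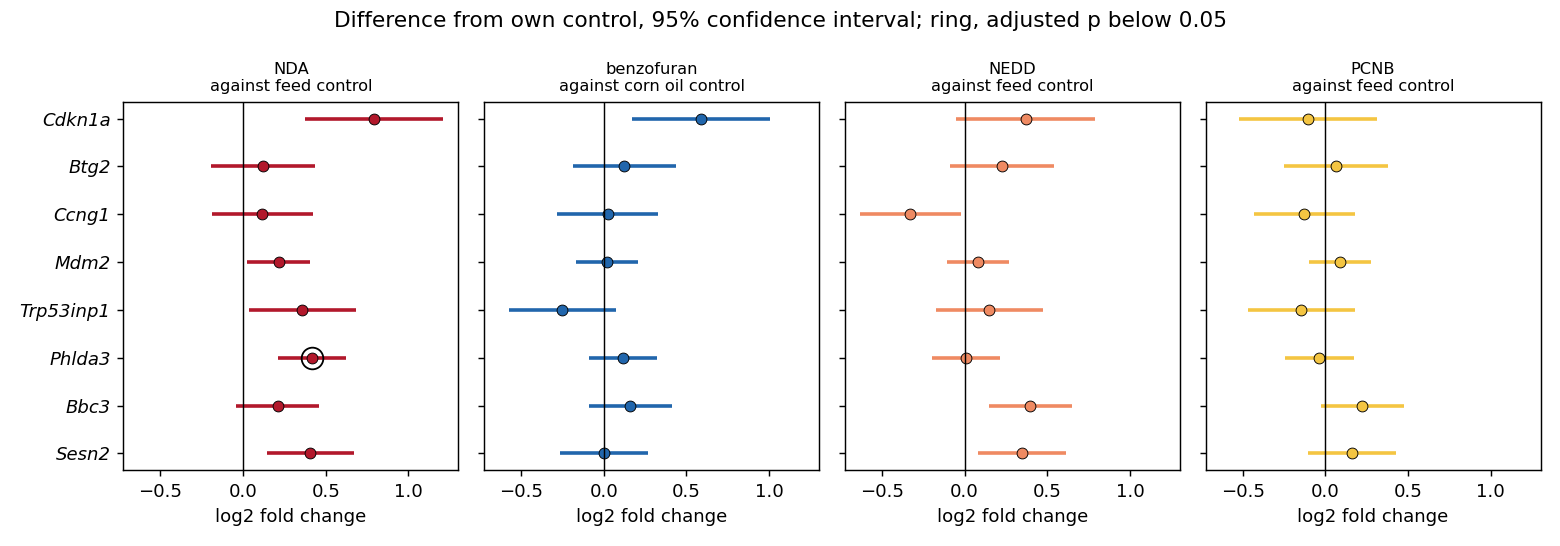
Difference in log2 signal from the treatment's own control for the 8 genes, as points with 95% intervals from limma, and a ring where the adjusted p was below 0.05. Phlda3 with NDA (0.42) has the only ring, and the largest differences belong to Cdkn1a with NDA (0.79) and with benzofuran (0.59).

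Benzofuran, the other lung carcinogen, raised none of the 8 members past the threshold, where 1.73% of all genes were called. Of the 8 differences 7 were positive, as were 60.2% of all genes, and the members' median of 0.07 stood beside 0.05 for all genes. Cdkn1a was the member whose arrays did not overlap with their controls, which 13.1% of all genes did in the same direction. Without the array of mouse 10 the value for Cdkn1a was 0.70 (adjusted p = 0.192) and no member was called. Also without it, Btg2 was at 0.30, Trp53inp1 at -0.12, Sesn2 at 0.13 and Phlda3 at 0.03.

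With NEDD no member was called, beside 0.0223% of all genes. The members' median was 0.19 against -0.02 for all genes, 7 of 8 were positive, and Bbc3 and Sesn2 were the 2 whose arrays lay above their controls, as 7.23% of all genes did. With PCNB no member was called, beside 0.0149% of all genes, 4 differences were positive and 4 negative, and their median was 0.01. No member's PCNB arrays were separated upward from the feed controls, against 3.67% of all genes. The NDA, NEDD and PCNB comparisons share the same 3 feed control arrays.

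The question of the study, which genes mark chemicals that cause lung tumours, is asked by setting the mean effect of NDA and benzofuran against that of NEDD and PCNB, each relative to its own control. No p53 target passed that test, beside 3.49% of all genes. Phlda3 came to 0.28 ± 0.09 (adjusted p = 0.0836) and Cdkn1a to 0.56 ± 0.17 (adjusted p = 0.0867), the members with the smallest p-values. Ccng1 came to 0.30 ± 0.13 (adjusted p = 0.208), and the other 5 lay between -0.13 and 0.05. Without benzofuran mouse 8, Phlda3 was called (adjusted p = 0.0461), in a fit where 6.47% of all genes were called.

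At the matched dose of 2000 ppm, NDA was higher than NEDD for Phlda3 by 0.41 ± 0.10 (adjusted p = 0.0363), the 1 member called beside 2.12% of all genes. The signals were 9.15, 9.11 and 9.17 in NDA lungs, against 8.71, 8.78 and 8.71 in NEDD lungs. That call held in 8 of 16 alternatives and was lost with any 1 of the 6 arrays left out, with adjusted p from 0.0643 to 0.154. It was also missed in the fit on probe sets, which is not among those 16 (adjusted p = 0.0546). Ccng1 differed by 0.44 ± 0.14 (adjusted p = 0.156) and Cdkn1a by 0.42 ± 0.20 (95% interval 0.00 to 0.84, adjusted p = 0.405), both without overlap, as was Mdm2 at 0.13 ± 0.09. Those 4 separated members of 8 stand beside 13.2% of all genes. Btg2 and Bbc3 had negative differences, -0.11 ± 0.15 and -0.19 ± 0.12, and Sesn2 gave 0.06 ± 0.13 with an interval of -0.20 to 0.33. This was the 1 pair of related compounds compared. Cell markers differed in the same comparison: NDA was higher than NEDD for 3 of 5 B and plasma cell markers, with Ighm at 3.94 ± 0.48, and the list's summed signal ran from 10908 to 22973 in NDA lungs, against 1365 to 1787 in NEDD lungs. Marco, 1 of 4 macrophage markers, was higher by 2.19 ± 0.16 and had itself fallen with NEDD against feed control (-1.04 ± 0.16, adjusted p = 0.0292), with list sums of 5067 to 6795 in NDA lungs, against 4146 to 5133 in NEDD lungs. The club cell marker Upk3a was higher by 1.34 ± 0.13, the 1 called of 4. The club list's sum went the other way, with 46399 to 48058 in NDA lungs, against 51323 to 51561 in NEDD lungs. The endothelial marker Tie1, the 1 called of 5, was lower (-0.48 ± 0.12). The part of these markers in the Phlda3 difference was not tested. The differences between the NDA and benzofuran effects passed the test for no member, beside 0.29% of all genes.

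Corn oil against feed control gave no called gene at all in limma, 0% of 13434, with 271 genes or 2.02% at an unadjusted p below 0.05. Among the members, on the probe sets used, Cdkn1a alone had an unadjusted p below that value.

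Other genes of the p53 pathway lay close to no change at the median. Of 44 other pathway genes listed, 42 had a probe set and 37 were tested. None passed the test with NDA, benzofuran, NEDD or PCNB, beside 1.37%, 1.73%, 0.0223% and 0.0149% of all genes in that order. With NDA 19 of the 37 had a positive difference and their median was 0.01. With benzofuran the median was 0.06 and 23 were positive, with NEDD -0.03 and 15, and with PCNB -0.04 and 15. Among all genes tested 44.1% were positive with NDA, 60.2% with benzofuran, 45.8% with NEDD and 43.6% with PCNB.

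**Figure D4:**
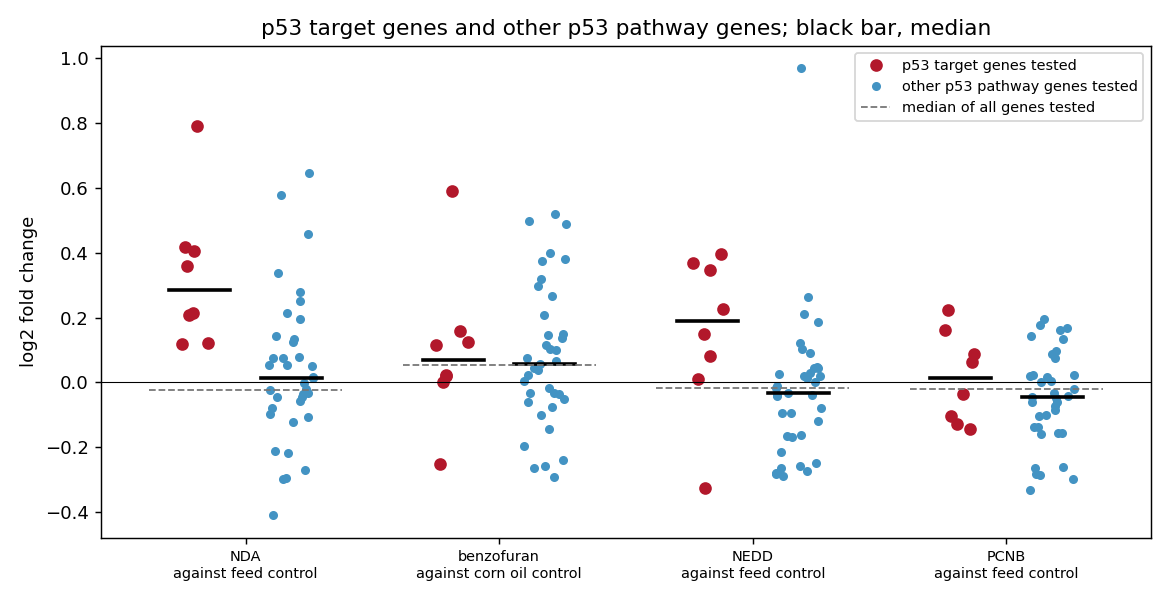
Differences in log2 signal from own control for the 8 p53 targets and for 37 other p53 pathway genes, with 1 point per gene, black bars at the medians and a dashed line at the median of all genes tested. With NDA the targets' median is 0.29 and that of the other pathway genes 0.01, and with benzofuran the medians are 0.07 and 0.06.

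Among other genes of arrest and repair, Zmat3, an RNA-binding p53 target, had a median of 8.37 and a range of 8.24 to 8.37 in NDA lungs, against 7.90 and 7.79 to 7.91 in feed control lungs. The arrays did not overlap, and the difference was 0.46 ± 0.12 with an adjusted p of 0.0877. Sfn, the 14-3-3 sigma protein that holds cells before mitosis, gave 0.65 ± 0.18 (adjusted p = 0.108), and the nucleotide excision repair gene Ddb2 gave -0.27 ± 0.10 (adjusted p = 0.276). Ddb2 was also at -0.29 ± 0.10 with NEDD and -0.26 ± 0.10 with PCNB, 3 values that share their controls.

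Among other death genes, Pmaip1, which encodes Noxa, gave -0.41 ± 0.16 with NDA (adjusted p = 0.316), opposite in sign to Bbc3. Aen, an apoptosis-enhancing nuclease, gave 0.28 ± 0.15 with NDA and 0.52 ± 0.15 with benzofuran (adjusted p = 0.0778). In the feedback and metabolism list, Tigar, which diverts glucose toward the pentose phosphate pathway, gave 0.37 ± 0.10 with benzofuran (adjusted p = 0.0576) and -0.04 ± 0.10 with NDA. Ddit4, an mTORC1 inhibitor that also answers to glucocorticoids, gave 0.97 ± 0.24 with NEDD (adjusted p = 0.323).

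Upstream of p53, the checkpoint kinase Chek2 was the 1 pathway gene called, in the comparison of the carcinogens with the other chemicals. Its value was 0.62 ± 0.15 (adjusted p = 0.0234), beside 3.49% of all genes called there. Its arrays ran from 6.68 to 7.03 in NDA lungs and from 6.64 to 7.50 in benzofuran lungs, against 6.12 to 6.32 in NEDD lungs and 6.31 to 6.36 in PCNB lungs. Feed control lungs ran from 6.32 to 6.69 and corn oil control lungs from 6.37 to 6.51. The call was lost without NDA mouse 5 (0.57, adjusted p = 0.0598) or feed control mouse 27 (0.57, adjusted p = 0.0554), and without benzofuran mouse 10 the value was 0.48 (adjusted p = 0.00714). In the same comparison 2 of 4 ciliated cell markers were called higher, Foxj1 at 0.73 ± 0.17 and Tekt4 at 0.66 ± 0.15, with list sums of 872 to 942 in NDA lungs and 917 to 1135 in benzofuran lungs, against 600 to 734 in NEDD lungs and 651 to 790 in PCNB lungs. Also called higher were 3 of 5 B and plasma cell markers, Marco of 4 macrophage markers and Upk3a of 4 club cell markers. The club list's sum was 46399 to 48058 in NDA lungs and 51989 to 55275 in benzofuran lungs. It was 51323 to 51561 in NEDD lungs and 51489 to 53181 in PCNB lungs. The part of these cell markers in the Chek2 value was not tested.

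The genes whose signal ran most like that of Phlda3 over the 18 arrays were Nupr1 (Pearson r = 0.93), Ghrl (0.93), Cldn2 (0.92), C1qc (0.92) and Gsr (0.92). Those most like Cdkn1a were Slc3a2 (0.88), Apoe (0.85), Serpina3n (0.83), Rcc2 (0.83) and Adamts15 (0.82). These arrays include the treatment groups, so that any gene high in NDA lungs scores well. Phlda3 and Cdkn1a correlated at 0.56 over the 18 arrays and at -0.44 after the group means were taken out.

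Other features also differed between NDA and feed control lungs. Of 5 tested markers of B and plasma cells 3 rose with NDA: Ighm by 3.78 ± 0.48, Jchain by 3.46 ± 0.48 and Mzb1 by 1.88 ± 0.27, and the summed linear signal of the list ran from 10908 to 22973 in NDA lungs, against 1073 to 2215 in feed control lungs. The macrophage receptor Marco rose by 1.15 ± 0.16, 1 of 4 tested macrophage markers, with list sums of 5067 to 6795 in NDA lungs, against 4870 to 7607 in feed control lungs. Of 4 club cell markers Upk3a rose by 1.40 ± 0.13, and the list's sum was 46399 to 48058 in NDA lungs, against 50964 to 53387 in feed control lungs. The 3' minus 5' difference of the actin probe sets was 0.33 to 0.43 in NDA lungs, against 0.58 to 0.73 in feed control lungs. With that difference as a covariate Phlda3 was at 0.46 (adjusted p = 0.0411). The part of the cell markers in the p53 target values was not tested.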

How the data were processed

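The deposited table holds log2 signals of 45101 probe sets on 18 arrays, without missing values, and the log base was taken from the range of 2.48 to 14.8. How the authors summarised and normalized these log2 values is not given in the sources used here. The labels' protocols give Trizol extraction, column purification and biotin labelling of 10 µg of RNA. Values were used as deposited. Gene names came from the platform annotation, in which 34945 had 1 symbol, 932 had several and 9160 had none here. Each gene took the probe set with the highest mean, tested if above the 40th percentile of its array on at least 3 arrays.

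Linear models with 1 mean per group over all 18 arrays (12 residual degrees of freedom) were fitted with limma 3.58.1 in R 4.3.3, two-sided, with Benjamini-Hochberg adjustment within each of 8 comparisons and a threshold of 0.05. The 4 remaining differences between pairs of treatment effects, NDA against PCNB among them, were tested in the same way. The number of arrays limits the precision: on simulated data for NDA against feed control, 26.8% of genes changed by 0.4 (log2) and 80.8% of those changed by 0.8 were recovered, with 5.32% of calls false.

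The members and all lists (upstream genes, arrest and repair, apoptosis, feedback and metabolism, integrated stress response, immediate early, clock and glucocorticoid, proliferation, and cell type markers) were chosen with earlier results of these data known. From each list the called genes are named, otherwise up to 3 with the smallest p, and the 5 genes most correlated with Cdkn1a and with a called member. The liver genes, Myh6, Sftpc, Scgb1a1 and Ager were picked as examples of their marker lists. Alternatives covered filters, normalization, probe set choice, array weights, the prior, 3' bias, merged controls and left-out arrays. Promoters are from RefSeq (GRCm38.p6).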

Additional observations from a re-analysis of the deposited data

Results flagged for a closer look

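Between treatments, each taken against its own control, 6 differences stood out. NDA exceeded NEDD for Phlda3 by 0.41 (0.42 with NDA and 0.01 with NEDD, adjusted p = 0.0363) and PCNB by 0.45 (0.42 with NDA and -0.04 with PCNB, adjusted p = 0.0234). For Cdkn1a NDA exceeded PCNB by 0.89 (0.79 with NDA and -0.10 with PCNB, adjusted p = 0.0260), in a comparison where 1.37% of all genes were called. These 3 differences passed limma's test, and the doses of NDA and PCNB differed. With 1 NDA or PCNB array left out, an alternative chosen after seeing the data, both calls against PCNB were lost in 5 of 6 fits and held only without PCNB mouse 18, with adjusted p of 0.0494 to 0.137 for Phlda3 and 0.0314 to 0.143 for Cdkn1a. The other alternatives were not run for NDA against PCNB.

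The 3 others stood out by their arrays on the probe sets used. All arrays of one treatment lay above, and all arrays of the other below, the means of their controls. None passed the test of the difference, and the share of all genes with this pattern was not counted. Trp53inp1 was 0.61 higher with NDA than with benzofuran (0.36 with NDA and -0.25 with benzofuran, adjusted p = 0.417) and 0.50 higher with NDA than with PCNB (0.36 with NDA and -0.15 with PCNB, adjusted p = 0.163). Ccng1 was 0.44 higher with NDA than with NEDD (0.12 with NDA and -0.33 with NEDD, adjusted p = 0.156). Its lowest NDA array and the feed control mean were both 10.12. The pattern did not hold on other probe sets of these genes. For Trp53inp1, benzofuran mice 6 and 8 (7.72 and 7.95) lay above the corn oil control mean of 7.56. For the same gene PCNB mice 18 and 20 (7.55 and 7.65) lay above the feed control mean of 7.48. For Ccng1, NEDD mouse 14 (9.40 and 9.29) lay above the feed control means of 9.11 and 9.19.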

How the results depend on the processing

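For NDA against feed control 1 member was called, beside 1.37% of all genes. The number was 3 with array weights (Cdkn1a, Phlda3 and Sesn2), where 5.62% of all genes were called. It was 2 (Cdkn1a and Phlda3) with benzofuran 10 out of every fit (2.35% of all genes), controls merged (2.63%), the mean of all probe sets (1.38%), or a trend and robust prior (1.44%). It was 0 with median centring (1.2%) or with no filter (1.03%), and leaving out 1 array gave 0 to 1. With only the groups compared (2.11%) the 1 gene called was Cdkn1a (adjusted p = 0.00747) in place of Phlda3 (adjusted p = 0.0658). For NDA against NEDD 1 was called (2.12%), 2 (Ccng1 and Phlda3) with array weights (13.5%) or the mean of all probe sets (2.19%), 0 with median centring (1.77%) or quantile normalization (2.14%), and 0 with any array left out. Array weights called 1 of 8 for benzofuran (Btg2), beside 8.55% of all genes in place of 1.73%. They called 1 for NEDD (Sesn2), beside 3.88% in place of 0.0223%, and 2 for the carcinogens against the other chemicals (Ccng1 and Phlda3), beside 13.9% in place of 3.49%. For that last comparison merged controls called 1 (Phlda3), beside 5.61%. Leaving out 1 array gave 0, or 1 without benzofuran mouse 8, beside 6.47% of all genes. The causes of these changes were not tested, and fits with an array left out also have fewer arrays. Leaving benzofuran 10 out was chosen after seeing the data.

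Of 1288 values of single genes under the alternatives, 1156 kept their sign and side of the threshold, 26 lost their call, 16 gained one and 90 uncalled values changed sign. No paired analysis was possible because animal numbers are not shared between groups. With 3 arrays per group, changes the size of those of most members are recovered in a minority of cases.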

Other observations

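Genes of the integrated stress response, the program that Atf4 drives when amino acids run short or proteins misfold, rose with NDA in 3 of 12 tested members, beside 1.12% of all genes called higher. This list and those below were chosen with earlier results of these data known, so that their counts are descriptions only. Nupr1, a stress-induced chromatin protein, was 11.8 to 12.0 in NDA lungs, against 10.6 to 11.1 in feed control lungs (1.01 ± 0.14, adjusted p = 0.000351). Trib3, a pseudokinase that Atf4 and Ddit3 induce, was 6.67 to 7.20 in NDA lungs, against 5.93 to 5.96 in feed control lungs (0.94 ± 0.13, adjusted p = 0.000381). Psat1 of serine synthesis rose by 0.76 ± 0.15 (adjusted p = 0.00881), a call lost without NDA mouse 4 or feed control mouse 27 or 29 (adjusted p 0.0585 to 0.0654). No member of the list was called with benzofuran, NEDD or PCNB against its own control. In the comparison of the carcinogens with the other chemicals Nupr1 was higher by 0.75 ± 0.12 (adjusted p = 0.00200), a call that held in 18 of 18 fits with 1 array left out. Against NEDD, NDA was higher for Nupr1 by 1.08 ± 0.14 and for Trib3 by 0.66 ± 0.13, and the call of Trib3 was lost without NDA mouse 4 or NEDD mouse 12 or 14 (adjusted p 0.0524 to 0.0770).

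Of 11 tested proliferation genes, all 11 had positive differences with NDA, 10 with NEDD and 10 with PCNB, and 1 with benzofuran, where 44.1%, 45.8%, 43.6% and 60.2% of all genes were positive in the same order. The controls differed among themselves: all 11 were positive in corn oil against feed controls, with a median of 0.83 and none called in limma. The list's mean level, centred on all arrays, was 0.22 in NDA, 0.02 in NEDD, -0.25 in PCNB and -0.02 in benzofuran lungs, against -0.37 in feed control and 0.39 in corn oil control lungs. Racgap1, needed for cytokinesis, rose with NDA by 0.54 ± 0.10 (adjusted p = 0.00578, or 0.0521 without NDA mouse 5). Mki67 fell with benzofuran by 0.96 ± 0.22 on the log2 scale (adjusted p = 0.0302), a call lost without benzofuran mouse 6 or 10 or corn oil control mouse 22 or 24. It averaged 6.99 in benzofuran lungs, against 7.95 in corn oil control lungs, and 6.92 in feed control lungs. The part of the corn oil controls' level in that value was not tested. No immediate early gene of 12 tested was called in any of the 4 treatments. Of 10 clock and glucocorticoid genes none was called against a control, and Per2 was lower with NDA than with NEDD by -1.15 ± 0.23 (adjusted p = 0.00882), which was lost without NDA mouse 4 or NEDD mouse 12 or 15.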
